A study of Mus musculus with 12 samples.

Results

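Tributyltin (TBT) was compared with rosiglitazone (ROSI) in mouse bone marrow stromal cells that had been turned towards fat cells for 14 days. The comparison takes the 4 libraries labelled TBT and the 4 labelled ROSI, which are 8 of the 12 RNA-seq libraries of the series, and covers every gene that passed a filter on low counts. The other 4 libraries are the vehicle (DMSO) group and are shown for reference. Results are also given without TBT replicate 4, which lies apart from the other TBT libraries.

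The cells were a commercial stock of mesenchymal stem cells from the marrow of female C57BL/6 mice, used at passages 9 to 10. All 3 groups shared the same inducing medium, with dexamethasone at 1 uM, isobutylmethylxanthine at 0.5 mM and insulin at 5 ug/mL, and differed in what was added to it: 0.1% DMSO, 500 nM rosiglitazone or 50 nM tributyltin. The ligands were therefore given at different doses, and the effect of the ligand and that of its dose cannot be told apart. Ribosomal RNA was depleted, and a SOLiD instrument gave single reads of 50 nt without strand, so reads of overlapping or antisense genes cannot be told apart. Whether the 4 libraries of each treatment are separate cultures is not stated in the labels, so p-values reflect only how far these libraries differ, which could be technical spread.

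Rosiglitazone is a thiazolidinedione that binds peroxisome proliferator-activated receptor gamma (PPARγ), the nuclear receptor that drives fat-cell differentiation. PPARγ binds DNA together with a retinoid X receptor (RXR). Tributyltin is an organotin compound that binds both PPARγ and RXR. RXR is also the partner of other receptors, among them the retinoic acid receptors, the liver X receptors (LXR) and the vitamin D receptor, and in some of these pairs an RXR ligand alone can switch on the target genes.

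In all, 12323 of 23955 gene symbols were tested. Of these, 2940 (23.9%) differed between TBT and ROSI at an adjusted p under 0.05 (edgeR quasi-likelihood test, Benjamini-Hochberg). Expression was higher in TBT for 1575 genes (12.8%) and lower for 1365 (11.1%), and 511 and 421 of them differed by at least 2-fold (7.56% of the genes tested). The shares called are the background for every gene group below. Without TBT replicate 4, 4826 of 12635 genes passed (38.2%), 2520 higher (19.9%) and 2306 lower (18.3%), of which 692 and 836 by at least 2-fold (12.1%). Of the genes called with all libraries, 2881 were also called without that library, 0 of them in the opposite direction, and 59 were not. The 4 TBT libraries did not overlap the 4 ROSI libraries in 2557 of the genes tested (20.7%). The count of 2940 also moved with other single libraries: it was 1732 without TBT replicate 1, 1919 without TBT replicate 3, 1896 without ROSI replicate 1 and 1854 without ROSI replicate 2.

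**Figure D1:**
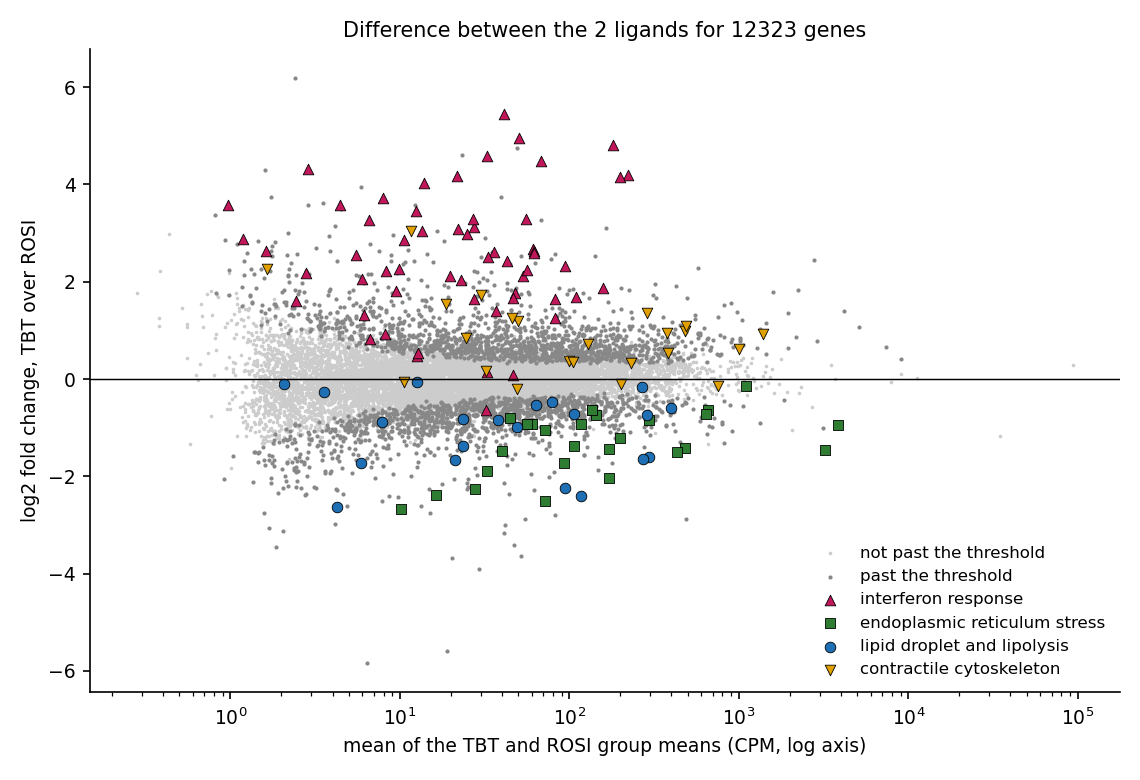
Each point is 1 of 12323 genes; the x axis is the mean CPM over the 8 libraries (log axis) and the y axis the log2 fold change of TBT over ROSI, with the interferon response, endoplasmic reticulum stress, lipid droplet and contractile lists coloured. Most interferon response genes lie above 0, with a median of 2.53, and endoplasmic reticulum stress genes mostly below 0, with a median of -1.22, while all genes have a median of 0.017.

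Library totals ran from 4027150 to 7474650 counts. TBT replicate 4 was the lowest of the TBT libraries in 34.6% of the genes tested and the highest in 34.2%, against 19.8% to 24.5% for each of the other TBT libraries. Among genes called higher in TBT, the median log2 difference from the ROSI mean was 0.93, 0.78, 0.88 and 0.48 in TBT replicates 1 to 4. Among genes called lower it was -0.95, -0.86, -0.85 and -0.48. Replicate 4 thus lay nearer to ROSI in both directions. Rn45s, the ribosomal RNA precursor, took 6.85% of the counts of replicate 4, 0.399% to 0.670% of those of the other TBT libraries and 1.36% to 9.27% of those of the ROSI libraries. Its part in the position of replicate 4 was not tested.

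**Figure D2:**
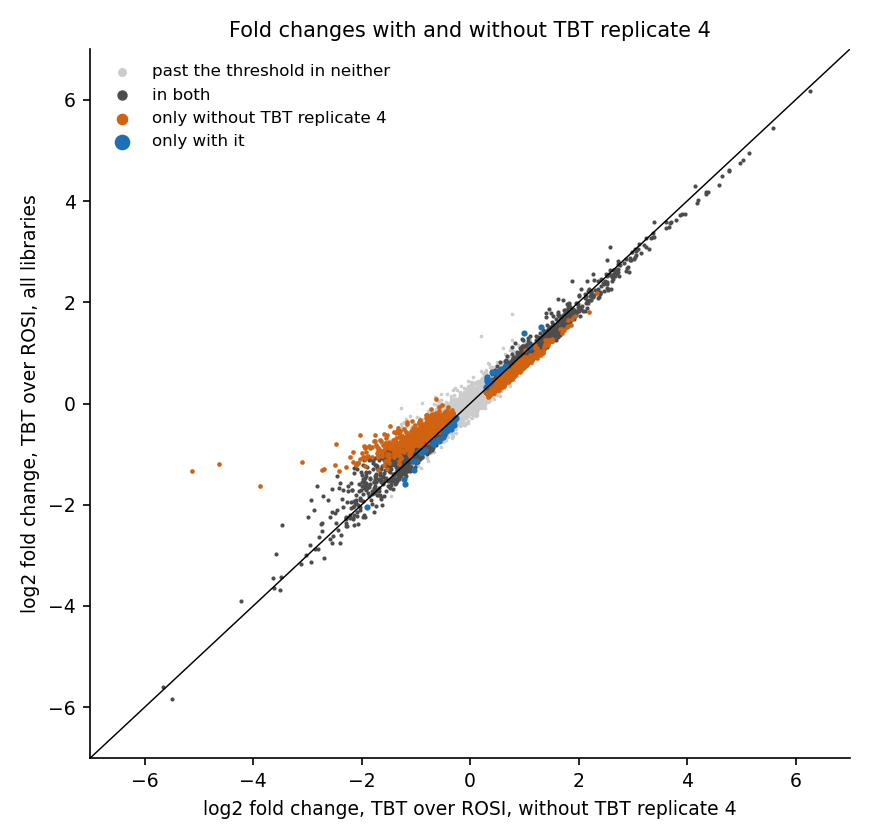
Log2 fold change of TBT over ROSI for each gene without TBT replicate 4 (x axis) and with all 4 TBT libraries (y axis). Genes called in both fits (2881) keep their direction, and 1945 genes were called only without replicate 4.

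Base composition moved with the TBT libraries as well. When genes were sorted by GC content into 10 groups of equal size, the poorest group (median 41.2% GC) had 317 genes higher and 32 lower in TBT, and the richest (59.2% GC) had 65 higher and 200 lower. Without TBT replicate 4 these counts were 493 and 44, and 85 and 390. In the poorest group the median log2 difference from the ROSI mean was 0.46, 0.29, 0.30 and 0.12 in TBT replicates 1 to 4. In the richest group it was -0.46, -0.43, -0.22 and 0.030. After a GC trend had been removed from every library, an alternative added after the data were seen, 2643 genes were called, 2248 of them shared with the main result (4319 called without TBT replicate 4). Olfactory, vomeronasal and trace amine-associated receptor genes (1466 symbols), which stromal cells are not known to use, summed to 133.6 ± 35.5 per 1e6 counts in TBT and 65.1 ± 6.66 in ROSI (SD, n = 4; exact permutation p = 0.0286, two-sided, the smallest that 4 against 4 libraries allow, adjusted p = 0.0571), and 516.5 ± 222.5 in DMSO. Without TBT replicate 4 the TBT sum was 138.1 ± 42.0 (SD, n = 3; exact permutation p = 0.0286, two-sided, adjusted p = 0.0571). CPM below was computed on TMM-scaled library sizes, and ± beside a CPM is the SD over n = 4 libraries.

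**Figure D3:**
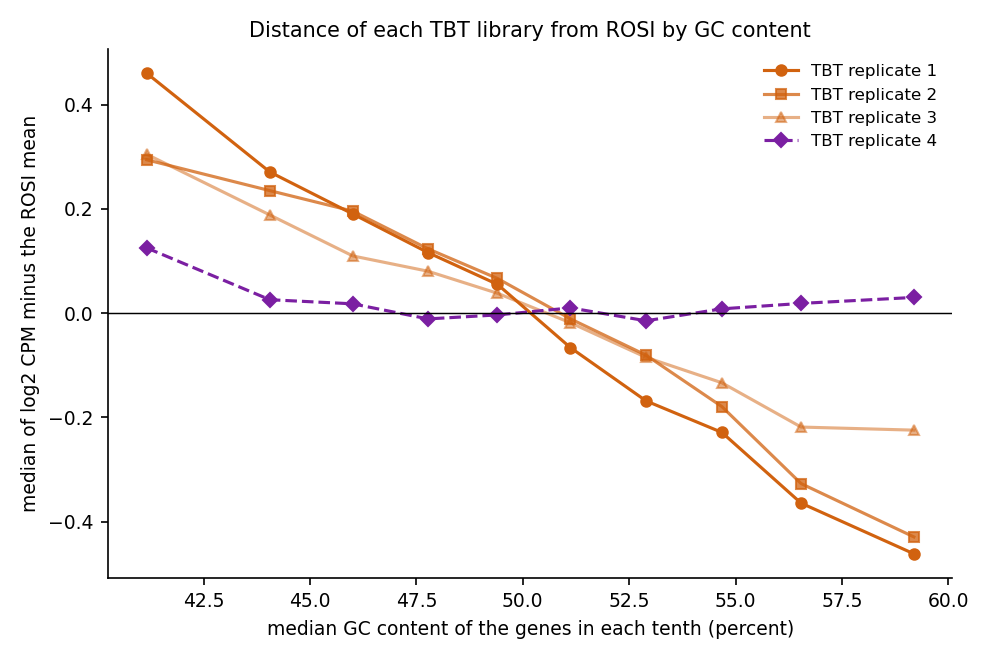
Median log2 CPM of each TBT library minus the ROSI mean, for genes sorted into 10 groups by the GC content of their transcripts (x axis, from poorest to richest). The lines of replicates 1 to 3 fall from left to right, from 0.46, 0.29 and 0.30 to -0.46, -0.43 and -0.22. That of replicate 4 is flatter, from 0.12 to 0.030.

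The cells carried stromal markers in both groups. Pdgfra stood at 761 ± 91.4 CPM in TBT and 461 ± 43.6 in ROSI (SD, n = 4), and the 24 listed mesenchymal markers summed to 3869 to 5014 CPM in the TBT libraries and 2637 to 2832 in the ROSI libraries. Of the 19 that were tested, 6 were higher in TBT (among them Ly6a, the stem cell antigen Sca-1, at 1.96 ± 0.29) and 1, Mcam, was lower (3 without TBT replicate 4). Markers of blood cells were close to absent: the 12 lymphocyte genes summed to 1.30 to 2.32 CPM in TBT and 1.11 to 3.61 in ROSI, and the pan-leukocyte gene Ptprc had 9 counts in all TBT libraries and 4 in all ROSI libraries. The 19 listed macrophage genes summed to 20.3 to 36.3 CPM in TBT and 19.6 to 30.8 in ROSI, of which Cd68 and Cd14 made up most. Tyrobp, a macrophage and granulocyte adaptor, was at 0 counts in both groups. Endothelial genes summed to 7.91 to 11.1 CPM and 8.52 to 12.4 CPM, erythroid genes to 8.05 to 16.6 and 11.6 to 12.8, nearly all of it Alas2, and skeletal muscle genes to 39.6 to 60.9 and 38.5 to 44.6, nearly all of it Ttn. Myod1, the muscle master gene, was at 0 counts throughout. Ly6a had a log2 fold change of 1.78 without TBT replicate 4, with the same call.

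Transcripts of the ligands' own receptors, PPARγ and RXR, were compared first. Pparg was at 87.4, 90.1, 62.3 and 80.0 CPM in TBT replicates 1 to 4 and at 83.2, 69.5, 80.5 and 98.5 CPM in ROSI replicates 1 to 4. The groups overlapped, and the log2 fold change of TBT over ROSI was -0.050 ± 0.15 (± SE here and below; edgeR, adjusted p = 0.84), with a 95% interval of -0.37 to 0.27. Rxra, the main RXR of fat tissue, was at 114, 93.6, 114 and 136 CPM in TBT and 187, 129, 179.8 and 165 in ROSI, with a log2 fold change of -0.53 ± 0.14 (adjusted p = 0.011), and its TBT replicate 4 overlapped the ROSI range. After removal of the GC trend the Rxra difference was -0.28, with an adjusted p of 0.10. Rxrb was lower as well, at -0.99 ± 0.29 (adjusted p = 0.020), but at only 7.49 ± 3.97 against 14.7 ± 3.21 CPM, and the call ended without ROSI replicate 1 or 2 or without TBT replicate 1 or 2 (adjusted p from 0.054 to 0.075). Pparg had a log2 fold change of -0.040, Rxra of -0.62 and Rxrb of -1.38 without TBT replicate 4, and the same calls were made.

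Of 17 tested genes for RXR and the receptors that pair with it or are related to it, 4 were higher in TBT and 4 lower, with a median log2 fold change of -0.050 (5 and 6, median -0.25, without TBT replicate 4). Ppara, the receptor that drives fatty acid oxidation in liver and brown fat, was at 7.68, 4.63, 3.85 and 4.13 CPM in TBT and 24.6, 27.6, 21.9 and 24.9 in ROSI. No TBT library reached the ROSI range, and the log2 fold change was -2.26 ± 0.25 (adjusted p = 8.3e-06). The vitamin D receptor gene Vdr was higher in TBT at 1.07 ± 0.16, with 118 ± 7.51 CPM in DMSO (SD, n = 4), 101 ± 21.5 in TBT and 48.2 ± 8.70 in ROSI. Nr2f2, an orphan receptor that restrains fat-cell differentiation, was higher at 0.62 ± 0.12, and Thra, a thyroid hormone receptor, lower at -0.89 ± 0.19. Ppara had a log2 fold change of -2.17, Vdr of 1.13, Nr2f2 of 0.69 and Thra of -1.15 without TBT replicate 4, and the same calls were made.

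Genes of retinoic acid synthesis, breakdown and sensing were among the clear increases in TBT. Cyp26b1, the enzyme that breaks down retinoic acid and is itself induced by it, was at 234, 292, 221 and 221 CPM in the TBT libraries and 46.1, 36.8, 38.8 and 46.3 in the ROSI libraries, against 24.0 ± 2.77 in DMSO (SD, n = 4). All TBT libraries stood far above all ROSI libraries, at a log2 fold change of 2.53 ± 0.14 (edgeR adjusted p = 1.6e-08) and 2.58 ± 0.14 without replicate 4. Aldh1a1, which makes retinoic acid, was at 2336, 2877, 2550.1 and 2054 CPM in TBT and 628, 788, 727 and 698 in ROSI (1.79 ± 0.21, adjusted p = 1.8e-05). Its DMSO mean, 1669 ± 637 CPM, lay between the groups. Rarb, a retinoic acid receptor and a classic target of retinoic acid, was at 12.7, 19.1, 11.3 and 12.8 CPM in TBT and 3.26, 4.42, 4.53 and 4.01 in ROSI (1.76 ± 0.23). DMSO was at 18.7 ± 3.86 CPM. The genes thus took different positions relative to vehicle: Cyp26b1 was above DMSO in TBT (log2 fold change 3.33 ± 0.15) and in ROSI (0.80 ± 0.14), whereas Rarb was below DMSO in ROSI (-2.17 ± 0.23) and did not pass in TBT (-0.41 ± 0.20, adjusted p = 0.18). Aldh1a1 had a log2 fold change of 1.87 and Rarb of 1.81 without TBT replicate 4, and the same calls were made.

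Over the whole retinoid list, 5 of 19 tested genes were higher in TBT and 3 lower, with a median of 0.17 (5 and 4, median 0.021, without TBT replicate 4). Rbp4, which carries retinol in blood, was at 20.7, 18.9, 23.3 and 14.6 CPM in TBT and 8.27, 3.48, 11.5 and 9.83 in ROSI (1.22 ± 0.31). Rdh16, a retinol dehydrogenase, went the other way: 8.58, 8.69, 5.35 and 9.35 CPM in TBT against 75.2, 89.3, 82.4 and 96.1 in ROSI, a log2 fold change of -3.42 ± 0.48, with no overlap. Dhrs9 and Retsat, further retinol enzymes, were lower at -0.64 ± 0.15 and -0.61 ± 0.17, and the Retsat call ended without TBT replicate 1 or 3 (adjusted p = 0.059 and 0.050). Rbp4 had a log2 fold change of 1.34, Rdh16 of -3.49, Dhrs9 of -0.58 and Retsat of -0.73 without TBT replicate 4, and the same calls were made.

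LXR targets were split. Abca1, which exports cholesterol, was at 818, 895, 719.6 and 689 CPM in TBT and 263, 288, 338 and 373 in ROSI, and was higher in TBT by 1.31 ± 0.14 (adjusted p = 5.6e-06). Both groups were above DMSO, which was at 158 ± 15.1 CPM (log2 fold change 2.31 ± 0.14 for TBT and 0.998 ± 0.14 for ROSI). Lpcat3, a phospholipid-remodelling enzyme, was higher by 0.42 ± 0.11, while Mylip, which degrades the LDL receptor, and the apolipoprotein gene Apoc1 were lower, at -1.02 and -1.64. Of 14 tested LXR targets 2 were higher and 5 lower in TBT, with a median of -0.52; 8 were lower without TBT replicate 4, and 3 without ROSI replicate 2 or TBT replicate 1. Srebf1, the LXR target that drives fatty acid synthesis, was at -0.51 ± 0.20 (adjusted p = 0.067, 95% interval -0.93 to -0.10) and passed without TBT replicate 4 (-0.66 ± 0.19, adjusted p = 0.0095). It also passed with no filter and without DMSO replicate 3 or 4 or ROSI replicate 4. After GC correction Srebf1 was at -0.25 (edgeR adjusted p = 0.30). With GC correction and without TBT replicate 4 it was at -0.30 (adjusted p = 0.21) and did not pass. In cholesterol synthesis, 6 of 23 genes were higher and 3 lower, with a median of -0.017 (6 and 5, median -0.040, without TBT replicate 4). The median turned to 0.12 after GC correction and to 0.064 in a fit of only the TBT and ROSI libraries. Idi1 was higher (1.24 ± 0.20) and Cyp51 and Lss were lower (-0.70 ± 0.17 and -0.64 ± 0.18), so steps of 1 pathway moved in both directions. The count of higher genes rested on single libraries: it was 3 without ROSI replicate 2 or TBT replicate 2 and 2 without ROSI replicate 3. Abca1 had a log2 fold change of 1.37, Lpcat3 of 0.38, Mylip of -1.08, Apoc1 of -1.995, Idi1 of 1.26 and Cyp51 of -0.64 without TBT replicate 4. Lss had a log2 fold change of -0.48 without TBT replicate 4, and the same calls were made.

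Among genes of the lipid-storing fat cell, more were lower than higher in TBT, and PPARγ targets were found on both sides. Of 20 tested PPARγ targets and lipid uptake genes, 9 were lower and 2 higher in TBT, with a median log2 fold change of -0.63 (13 of 22 lower, 3 higher and a median of -0.68 without TBT replicate 4). In bulk RNA, fewer cells of a type and less RNA per cell cannot be told apart. Fabp4, which shuttles fatty acids inside fat cells, was at 431, 696, 366 and 364 CPM in TBT and 1098, 1090.5, 1173 and 1292 in ROSI. Every TBT library lay below every ROSI library (-1.32 ± 0.35, adjusted p = 0.013), and DMSO ran from 63.8 to 314 CPM. Fabp4 had a log2 fold change of -1.21 without TBT replicate 4, with the same call.

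Acsl1, which activates fatty acids for storage, was at 115, 115, 122.8 and 114 CPM in TBT and 783, 941, 793 and 924 in ROSI. The TBT libraries were tight and far below ROSI, at -2.88 ± 0.23 (adjusted p = 4.7e-07). Against DMSO, at 202 ± 93.6 CPM (SD, n = 4), ROSI was higher (2.08 ± 0.22) and TBT lower (-0.80 ± 0.22, adjusted p = 0.023). Gpd1 and Gyk, which supply the glycerol backbone of fat, were lower, at -2.79 and -1.58. Against them stood Cpt1a, the gate of fatty acid entry into mitochondria, at 48.1, 53.8, 42.1 and 36.3 CPM in TBT and 16.3, 11.2, 16.7 and 10.8 in ROSI (1.71 ± 0.20, adjusted p = 1.6e-05), with no overlap and DMSO at 20.4 ± 4.89. Angptl4, a secreted inhibitor of lipoprotein lipase, was at 441, 395, 496 and 339 CPM in TBT and 196, 180.1, 202 and 232 in ROSI (1.04 ± 0.20). Both groups were above DMSO (49.0 ± 19.5 CPM), TBT by 3.08 ± 0.22 and ROSI by 2.04 ± 0.21 on the log2 scale. Acsl1 had a log2 fold change of -2.86, Gpd1 of -2.95, Gyk of -1.61, Cpt1a of 1.81 and Angptl4 of 1.14 without TBT replicate 4, and the same calls were made.

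Some PPARγ targets did not pass the test. Pdk4, a brake on glucose oxidation, was at 358, 333, 363 and 445 CPM in TBT and 416, 398, 385 and 392 in ROSI, a log2 fold change of -0.086 ± 0.17 with a 95% interval of -0.44 to 0.27. Both were above DMSO, at 135 ± 39.6 CPM, TBT by 1.47 ± 0.17 and ROSI by 1.56 ± 0.17. Fabp5 was at -0.68 ± 0.34 (adjusted p = 0.15, interval -1.40 to 0.034), and a fit without DMSO replicate 3 or one of only the TBT and ROSI libraries called it lower (adjusted p = 0.0086 and 0.018). The intervals for Pdk4 and Pparg lie inside a 1.5-fold difference in either direction, whereas that for Fabp5 does not. Pdk4 had a log2 fold change of -0.17 and Fabp5 of -0.58 without TBT replicate 4, and the same calls were made.

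Most lipid droplet genes were lower in TBT. Of 21 tested, 15 were lower in TBT and 0 higher, with a median of -0.84; without TBT replicate 4 the values were 16, 0 and -1.01. Plin2, a coat protein of lipid droplets, was at 32.2, 34.2, 27.8 and 36.1 CPM in TBT and 153, 149.9, 146 and 169.9 in ROSI (-2.25 ± 0.21, adjusted p = 2.0e-06), with no overlap. Cidea, which fuses droplets, was lower, at -2.64, as was Pnpla2, the first lipase of fat breakdown, at -1.65. Plin1, the coat protein of mature fat cells, was at 52.4, 53.5, 62.7 and 38.5 CPM in TBT and 79.0, 71.7, 74.9 and 74.4 in ROSI, and did not pass (-0.53 ± 0.29, adjusted p = 0.18, interval -1.14 to 0.067); it passed without DMSO replicate 3 (-0.56, adjusted p = 0.041) and in the fit of only the TBT and ROSI libraries (adjusted p = 0.019). Plin2 had a log2 fold change of -2.29, Cidea of -2.78, Pnpla2 of -1.87 and Plin1 of -0.41 without TBT replicate 4, and the same calls were made.

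**Figure D4:**
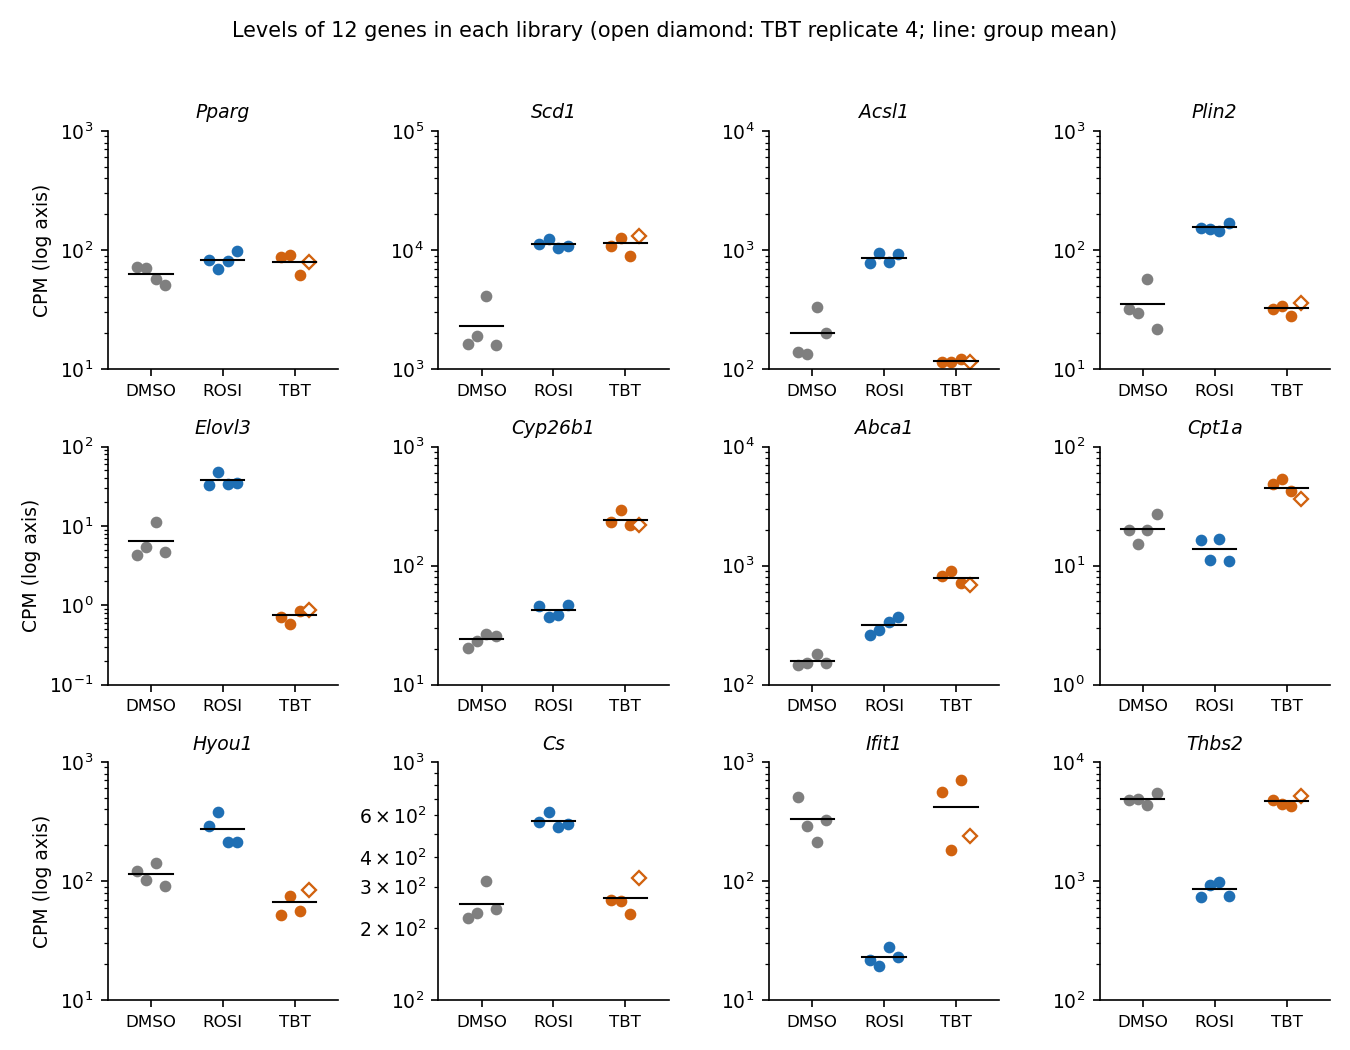
CPM (log axis) of 12 genes in each library of DMSO, ROSI and TBT; points are libraries, horizontal lines group means and the open diamond TBT replicate 4. Pparg and Scd1 overlap between ROSI and TBT, Cyp26b1 is 221 to 292 CPM in TBT against 36.8 to 46.3 in ROSI, and Ifit1 is 183 to 705 CPM in TBT against 19.4 to 27.9 in ROSI.

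Fat synthesis genes were lower more often than higher. Of 29 tested genes of fatty acid and triglyceride synthesis, 12 were lower and 3 higher in TBT (median -0.42; 17 and 3 without TBT replicate 4, median -0.60). Elovl3, which elongates fatty acids in brown and cold-exposed fat, showed a large deficit in TBT: 0.715, 0.579, 0.856 and 0.870 CPM against 32.6, 47.6, 34.0 and 35.1 in ROSI, a log2 fold change of -5.599 ± 0.35. Agpat9 and Dgat2, which add fatty acids to the glycerol backbone, were lower, at -1.76 and -1.87. Elovl6, which elongates palmitate, was higher by 0.59 ± 0.14, and with Acly and Fads1 it made up the genes called higher. That count of 3 was 1 without TBT replicate 2 or 3. The Fads1 call alone was lost in 12 of 22 alternatives, among them the replicate block, no filter, upper-quartile factors and the fits without any 1 of the ROSI libraries. Scd1, the desaturase that makes oleate, was at 10890.5, 12603, 8974 and 13048 CPM in TBT and 11188, 12456, 10354 and 10882 in ROSI; the groups overlapped (0.020 ± 0.25, adjusted p = 0.96, interval -0.51 to 0.55). Elovl3 had a log2 fold change of -5.66, Agpat9 of -1.76, Dgat2 of -2.04, Elovl6 of 0.69 and Scd1 of -0.043 without TBT replicate 4, and the same calls were made.

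Secreted products and glucose uptake genes were lower more often than higher. Adipoq, the hormone adiponectin, was at 3.57, 1.74, 1.93 and 1.96 CPM in TBT and 13.5, 15.96, 12.03 and 11.8 in ROSI. All TBT libraries were below all ROSI libraries (-2.51 ± 0.28, adjusted p = 1.1e-05), though the TBT values were low. Slc2a4, the insulin-regulated glucose transporter GLUT4, was at 3.04, 1.54, 1.497 and 6.96 CPM in TBT and 11.3, 13.1, 10.6 and 7.02 in ROSI (-1.70 ± 0.41). Retn (resistin) and Cfd (adipsin) were lower, at -1.09 and -1.08; the Cfd call ended without TBT replicate 1 or ROSI replicate 2 or 4 (adjusted p up to 0.089) and after GC correction (0.067). Trib3, an inhibitor of insulin signalling that is also induced by cell stress, was lower, at -2.39 ± 0.40, and Rarres2, the adipokine chemerin, was higher by 0.90 ± 0.20. Of 22 tested adipokine and glucose uptake genes, 9 were lower and 4 higher (median -0.29; 11 and 4, median -0.45, without TBT replicate 4). Adipoq had a log2 fold change of -2.43, Slc2a4 of -2.34, Retn of -0.93, Cfd of -1.15, Trib3 of -2.14 and Rarres2 of 0.87 without TBT replicate 4, and the same calls were made.

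Transcription factors that build a fat cell were found on both sides. Of 25 tested, 2 were higher and 5 lower in TBT, with a median of -0.050 (-0.074 without TBT replicate 4). Both counts moved with single libraries (1 to 5 higher and 2 to 7 lower when any 1 library was left out). After GC correction the balance turned, with 4 higher and 1 lower (median -0.0057). With GC correction and without TBT replicate 4 it was 8 higher and 3 lower (median 0.046). Cebpa, the partner of PPARγ in mature fat cells, was at 20.4, 22.8, 21.0 and 22.6 CPM in TBT and 41.6, 46.3, 64.7 and 70.2 in ROSI (-1.36 ± 0.20, adjusted p = 0.00012). Its DMSO level was 22.1 ± 5.81 CPM. Ebf1, an early factor of the lineage, was higher at 1.08 ± 0.11. Cebpa had a log2 fold change of -1.38 and Ebf1 of 1.103 without TBT replicate 4, and the same calls were made.

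Set beside the shared DMSO libraries, each ligand gave its own pattern for these lists, and because both comparisons use the same 4 DMSO libraries they are not independent of each other. Over all genes, 2787 (22.6%) differed between ROSI and DMSO (10% higher and 12.6% lower) and 1879 (15.2%) between TBT and DMSO (8.22% higher and 7.03% lower). Of the lipid droplet genes, 18 were higher than DMSO in ROSI (median 1.46) and 6 in TBT (median 0.52). Of the PPARγ targets, 15 were higher in ROSI (median 1.49) and 10 in TBT (median 0.76). DMSO replicate 3 stood apart in fat-cell genes, with Fabp4 at 314 CPM against 63.8 to 126 CPM in the other DMSO libraries. Without it these counts were 17 and 8 for lipid droplet genes and 16 and 11 for PPARγ targets, and without TBT replicate 4 the TBT medians were 0.27 and 0.57. Over all genes the shares without DMSO replicate 3 were 9.73% higher and 11.6% lower in ROSI and 6.83% and 6.07% in TBT, and without TBT replicate 4 they were 16.6% and 16.1% in TBT.

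**Figure D5:**
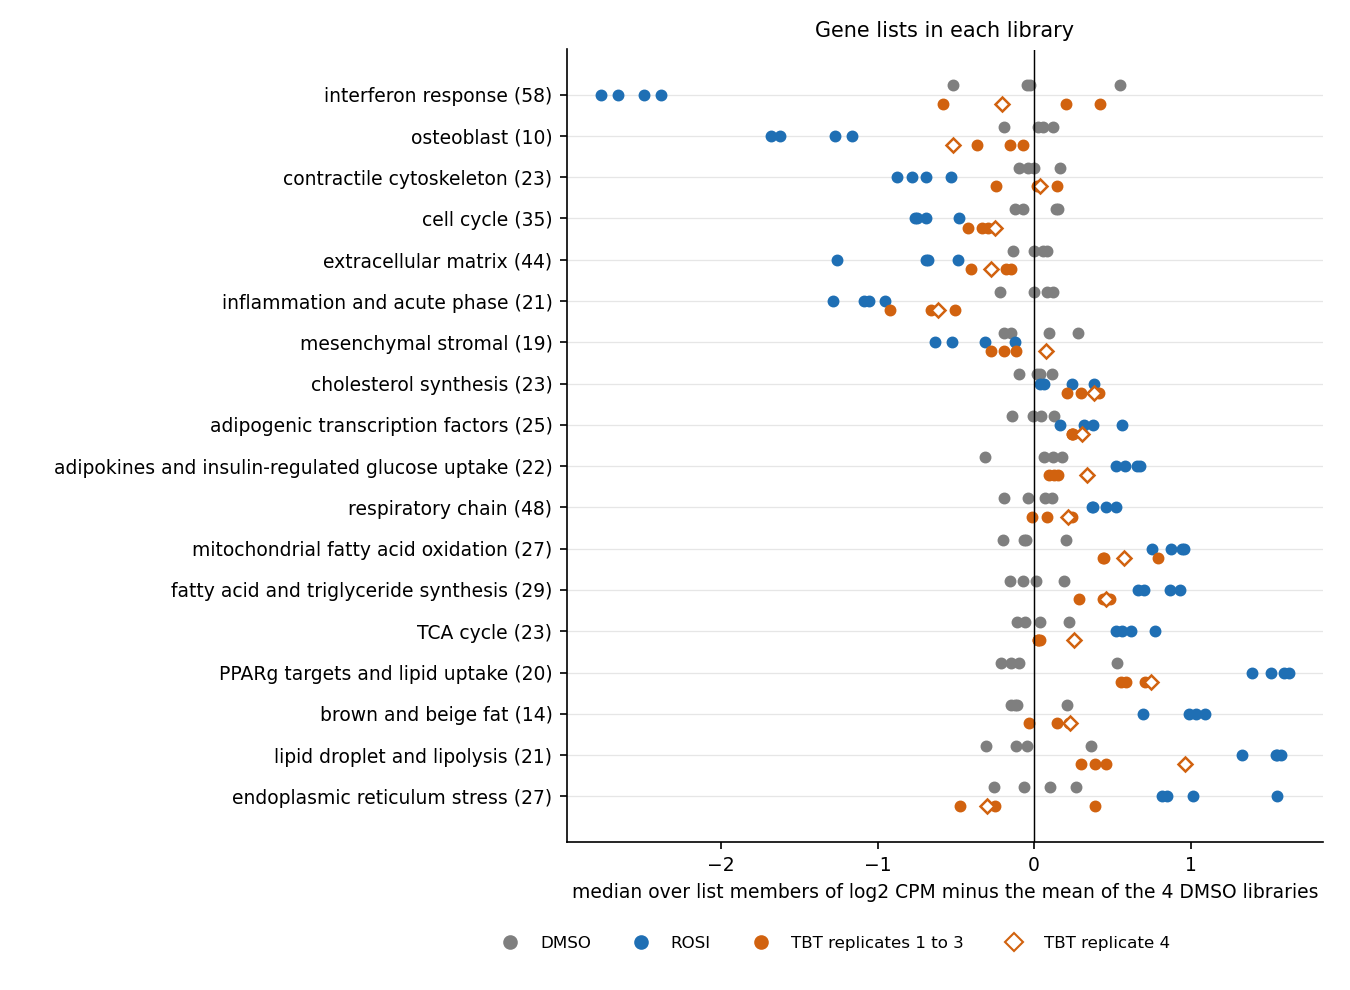
Median log2 CPM of each gene list minus the DMSO mean, for each ROSI and TBT library (points; open diamonds are TBT replicate 4), with 18 lists on the y axis. ROSI libraries lie from 0.82 to 1.55 for endoplasmic reticulum stress and from -2.77 to -2.38 for interferon response, where TBT libraries lie from -0.47 to 0.39 and from -0.59 to 0.42.

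Most genes of the mitochondrial citric acid (TCA) cycle were lower in TBT. Of 23 TCA cycle genes, 16 were lower and 0 higher, with a median of -0.53, and without TBT replicate 4 the count of lower genes was 16, with a median of -0.49. Cs, citrate synthase, was at 263, 261, 230.0 and 326 CPM in TBT and 560.4, 615, 531 and 551 in ROSI (-1.07 ± 0.14, adjusted p = 5.4e-05). DMSO was at 253 ± 43.4 CPM; ROSI was above it (1.16 ± 0.14) and TBT did not pass (0.094 ± 0.14, adjusted p = 0.68). Idh3a, a subunit of isocitrate dehydrogenase in the same cycle, was lower, at -0.90. Against DMSO, 19 of 23 TCA genes were higher in ROSI and 3 in TBT (medians 0.69 and 0.091, the latter 0.019 without TBT replicate 4); without DMSO replicate 3 the counts were 18 and 5, and without TBT replicate 4 the TBT count was 5 higher and 3 lower. Cs had a log2 fold change of -1.16 and Idh3a of -0.97 without TBT replicate 4, and the same calls were made.

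In the respiratory chain, 17 of 48 genes were lower and 0 higher (median -0.35; 21 and 1, median -0.33, without TBT replicate 4). Cycs (cytochrome c), Uqcrc1 of complex III and Atp5b of the ATP synthase were lower, at -1.13, -1.19 and -1.004. Of 27 genes of mitochondrial fatty acid oxidation, 10 were lower and 1, Cpt1a, higher (median -0.38; 13 of 28 and 1, median -0.39, without TBT replicate 4). Hadha, which carries out steps of the beta-oxidation cycle on long chains, was at 62.0, 60.8, 66.7 and 109 CPM in TBT and 190.3, 178, 156 and 151 in ROSI (-1.18 ± 0.18). Among 14 brown and beige fat genes, 9 were lower and 1 higher (median -0.77, and -0.92 without TBT replicate 4), the higher one being Dio2, which activates thyroid hormone, at 1.39 ± 0.27. Ucp1, the heat-producing uncoupler, was below the filter, with 0 counts in all TBT libraries and 9 in all ROSI libraries. Of 30 glycolysis and hypoxia genes, 5 were lower and 0 higher (median -0.19); the count was 3 without ROSI replicate 1, TBT replicate 1 or TBT replicate 2 and 8 without TBT replicate 4. Pfkfb3, Hk2 and Vegfa were among them, at -1.38, -0.96 and -0.77. Cycs had a log2 fold change of -1.03, Uqcrc1 of -1.40, Atp5b of -1.08, Hadha of -1.41, Dio2 of 1.60 and Pfkfb3 of -1.43 without TBT replicate 4. Hk2 had a log2 fold change of -0.85 and Vegfa of -0.75 without TBT replicate 4, and the same calls were made.

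The response to stress in the endoplasmic reticulum (ER) was lower in TBT almost gene by gene. Of 27 tested genes 26 were lower and 0 higher, with a median of -1.22; without TBT replicate 4 the counts were the same and the median was -1.16. The list holds chaperones, the sensors' transcription factors and their targets, and the 1 member without a call was Pdia3, a disulfide isomerase, at -0.15 ± 0.28 (adjusted p = 0.73). Hyou1, an ER chaperone, was at 51.8, 75.5, 56.5 and 83.7 CPM in TBT and 289, 379.7, 211 and 213 in ROSI (-2.03 ± 0.21, adjusted p = 4.0e-06). DMSO was at 114 ± 22.6 CPM, with ROSI above it (1.26 ± 0.20) and TBT below it (-0.77 ± 0.21, adjusted p = 0.020). Atf3, a stress transcription factor, was at 3.75, 2.32, 2.57 and 2.17 CPM in TBT and 15.5, 25.6, 14.4 and 14.4 in ROSI (-2.67 ± 0.28), and Ppp1r15a, which restarts protein synthesis after stress, was lower, at -1.90 ± 0.23. Pdia3 had a log2 fold change of 0.10, Hyou1 of -2.15, Atf3 of -2.58 and Ppp1r15a of -2.11 without TBT replicate 4, and the same calls were made.

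Hspa5, the main ER chaperone BiP, and Ddit3, the death-linked factor CHOP, which were chosen after their values were seen, were at -1.46 ± 0.25 and -1.47 ± 0.26. Hspa5 stood at 1557, 2572, 1523 and 1230.4 CPM in TBT and 3508, 6908, 3938 and 4604 in ROSI, with 1649 ± 406 in DMSO (SD, n = 4). Against DMSO, 23 of 27 genes were higher in ROSI (median 1.05), whereas in TBT 0 were higher and 3 lower (median -0.15; -0.058 without DMSO replicate 3 and -0.0036 without TBT replicate 4). Without DMSO replicate 3 the ROSI count was 23 and the TBT counts 0 and 1, and without TBT replicate 4 the TBT counts were 2 and 5. Hspa5 had a log2 fold change of -1.32 and Ddit3 of -1.34 without TBT replicate 4, and the same calls were made.

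Interferon response genes were mostly higher in TBT. Interferons are signals of viral infection, and the genes they induce are switched on through an element in the promoter that binds STAT and IRF factors. Of 58 tested genes 53 were higher in TBT and 1, the receptor subunit Ifnar1, was lower (-0.64 ± 0.14). The median was 2.53, and 2.602 without TBT replicate 4, with the same counts. The 4 without a call were Psmb9, Ifi35, Ifnar2 and Isg20. Ifnar1 had a log2 fold change of -0.60 without TBT replicate 4, with the same call.

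Ifit1, which binds viral RNA, was at 563, 183, 705 and 237 CPM in TBT replicates 1 to 4 and 21.8, 19.4, 27.9 and 23.1 CPM in ROSI. TBT replicates 1 and 3 were more than 2-fold above replicates 2 and 4, and all 4 were far above ROSI (4.19 ± 0.39, adjusted p = 1.5e-06; 4.39 ± 0.34 without replicate 4). DMSO stood at 335 ± 126 CPM (SD, n = 4); ROSI was below it (-3.85 ± 0.39) and TBT did not pass (0.33 ± 0.33, adjusted p = 0.52). Over the list, against DMSO, 54 of 58 genes were lower in ROSI (median -2.53), while in TBT 0 were higher and 6 lower (median -0.021; -0.17 without DMSO replicate 3 and 0.058 without TBT replicate 4). Without DMSO replicate 3 the ROSI count was 54; without TBT replicate 4, 5 were higher and 9 lower in TBT. The sensory receptor sums given above had the order DMSO, TBT, ROSI from high to low, and their part in these values was not tested.

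The 10 largest increases were taken among genes called with and without TBT replicate 4, with no overlap and a mean of at least 5 CPM, and 8 of them are on the interferon list. I830012O16Rik, a near-identical copy of Ifit3, was at 91.7, 39.0, 133 and 57.2 CPM in TBT and 1.003, 1.90, 2.07 and 2.01 in ROSI (5.45 ± 0.44). Iigp1 (an immunity-related GTPase), Ifi44, F830016B08Rik and Gm4951 (members of the same GTPase family) were at 4.95, 4.81, 4.76 and 4.60. Gbp3, a guanylate-binding protein, was at 4.60, Ifit3 at 4.49, Rsad2, the antiviral enzyme viperin, at 4.18 and Oasl2, of the oligoadenylate synthetase family, at 4.15. For copies and close family members the counts may be split or shared in a way that depends on how reads were assigned, so their single values are uncertain. I830012O16Rik had a log2 fold change of 5.58, Iigp1 of 5.14, Ifi44 of 5.04, F830016B08Rik of 4.97, Gm4951 of 4.78 and Gbp3 of 4.77 without TBT replicate 4. Ifit3 had a log2 fold change of 4.64, Rsad2 of 4.35 and Oasl2 of 4.36 without TBT replicate 4, and the same calls were made.

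Listed promoters were searched for the core of the interferon-stimulated response element. It is GAAA, 2 bases of any kind and GAAA again (TTTC in place of GAAA on the other strand). The search covered the 250 bases before the start of each gene (RefSeq sequences, GRCm38.p6). The counts themselves were made on mm9, and genes were joined by symbol. Of 27025 genes with a listed promoter, 936 (3.46%) held it in any of their promoters, as did 309 of 9571 (3.23%) of the genes tested. Among genes at least 2-fold higher in TBT, 54 of 361 (15%) held it, among those at least 2-fold lower 6 of 303 (1.98%), and on the interferon list 20 of 41 (48.8%). The windows below, from genes that the naming rule picked, show how the matches lie, with every match in capitals and the sequence read in the gene's direction. Only genes with a match are shown: Ifi44, Oasl2 and Ifnar1, named by the same rule, and another listed promoter of Gbp3 held 0 matches. Iigp1, F830016B08Rik, Gm4951 and Rtp4, also named, were not among the 41 interferon list genes with a listed promoter, and no window is given for them.
Ifit1, chr19:34640770-34640828, plus strand: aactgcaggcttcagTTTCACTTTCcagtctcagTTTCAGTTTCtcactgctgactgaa
Ifit3, chr19:34583358-34583431, plus strand: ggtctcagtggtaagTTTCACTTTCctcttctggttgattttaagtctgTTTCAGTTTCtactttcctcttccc
Rsad2, chr12:26456548-26456587, minus strand: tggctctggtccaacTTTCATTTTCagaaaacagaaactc
Gbp3, chr3:142559984-142560029, plus strand: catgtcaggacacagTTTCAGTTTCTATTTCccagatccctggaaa
The window of I830012O16Rik, chr19:34607754-34607827 on the plus strand, has the same letters as that of Ifit3. In Ifit1 the matches begin 104 and 85 bases before the start. A match is a description of the letters and not evidence that a factor was bound.

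The repeats taken for the pairs of RXR with PPAR and with LXR are AGGTCA repeated in the same direction. They have 1 base (PPAR type) or 4 bases (LXR type) of any kind between, and repeats of other RXR pairs were not searched. Searched on both strands in the same windows, they were found in 11 and 4 of 27025 genes. On the PPARγ and LXR target lists, 0 of 23 genes with a listed promoter held either. That says only that these exact letters are not in these windows.

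Inflammation and acute-phase genes were partly higher in TBT than in ROSI: 8 of 21 tested were higher and 1, Lcn2, was lower (median 0.38). Without TBT replicate 4 the counts were 10 of 22 and 1 (median 0.46). Against DMSO, 15 of the 21 were lower and 0 higher in ROSI (median -1.16), and 12 lower and 1 higher in TBT (median -0.59). These 4 counts were the same without DMSO replicate 3. Without TBT replicate 4, 15 of 22 were lower and 2 higher in TBT against DMSO (median -0.75). Cfb, a complement factor, was at 83.3, 68.1, 81.5 and 71.5 CPM in TBT and 19.8, 18.2, 25.5 and 19.3 in ROSI (1.87 ± 0.17). Il1rl1, the receptor for interleukin 33, and C1ra, a complement protease, were higher by 1.54 and 1.15. The Lcn2 call (-0.68 ± 0.19) ended without TBT replicate 1 or 2 (adjusted p = 0.060 and 0.051). Hp, the acute-phase protein haptoglobin, was at 0.16 ± 0.16 (adjusted p = 0.47, interval -0.17 to 0.49). Cfb had a log2 fold change of 1.91, Il1rl1 of 1.51, C1ra of 1.04, Lcn2 of -0.90 and Hp of 0.12 without TBT replicate 4, and the same calls were made.

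More matrix, contractile and bone genes were higher than lower in TBT. Of 44 extracellular matrix genes 23 were higher and 6 lower, with a median of 0.53 (24 of 45 and 7, median 0.53, without TBT replicate 4). Thbs2, a matrix regulator of the thrombospondin family, was at 4778, 4475, 4284 and 5140.2 CPM in TBT and 739, 931, 987 and 753 in ROSI (2.45 ± 0.15, adjusted p = 3.7e-08), with no overlap and DMSO at 4879 ± 462. Col8a1, a short-chain collagen, and Dcn, the proteoglycan decorin, were higher by 2.51 and 1.91, and Col1a1, the main collagen of bone and scar, by 0.91 ± 0.22. Lama4, a laminin of the basement membrane that surrounds each fat cell, was at 6.43, 9.26, 9.84 and 7.39 CPM in TBT and 70.2, 85.8, 66.2 and 73.4 in ROSI (-3.17 ± 0.24), opposite to most of the list. Col6a3 and Lamb1 were lower as well, at -0.99 and -0.67. Thbs2 had a log2 fold change of 2.41, Col8a1 of 2.68, Dcn of 1.84, Col1a1 of 0.998, Lama4 of -3.12 and Col6a3 of -1.001 without TBT replicate 4. Lamb1 had a log2 fold change of -0.53 without TBT replicate 4, and the same calls were made.

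Of 23 contractile genes 16 were higher and 0 lower (median 0.84; 16 and 0, median 0.82, without TBT replicate 4). Myh11, smooth muscle myosin, was at 30.2, 20.7, 22.5 and 9.79 CPM in TBT and 3.01, 2.21, 2.33 and 2.61 in ROSI (3.05 ± 0.36). The tropomyosin genes Tpm2 and Tpm1 were higher by 1.35 and 0.95, and Acta2, smooth muscle actin, was at 557, 512, 588 and 912 CPM in TBT and 325, 338, 340.1 and 296 in ROSI (0.98 ± 0.16). Of 10 osteoblast genes 6 were higher and 0 lower (median 0.98; 8 and 0, median 1.11, without TBT replicate 4). Omd, osteomodulin, was higher by 2.04 ± 0.24, Bmp4, a bone morphogenetic protein, by 2.38 ± 0.41, and Spp1, osteopontin, by 1.05 ± 0.20. Against DMSO, 15 contractile genes were lower in ROSI (median -0.64), and 3 were higher and 2 lower in TBT (median 0.12; 0.071 without DMSO replicate 3). For osteoblast genes the ROSI count was 8 lower (median -1.58) and the TBT count 1 lower (median -0.29; -0.15 without TBT replicate 4). Without DMSO replicate 3 the ROSI counts were 13 and 6, and without TBT replicate 4 the contractile genes in TBT were 7 higher and 6 lower. Myh11 had a log2 fold change of 3.29, Tpm2 of 1.504, Tpm1 of 0.98, Acta2 of 0.77, Omd of 2.21 and Bmp4 of 2.46 without TBT replicate 4. Spp1 had a log2 fold change of 1.23 without TBT replicate 4, and the same calls were made.

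Cell cycle genes leaned higher in TBT than in ROSI. Of 35, 15 were higher and 3 lower (median 0.54), and 9 were higher without TBT replicate 3. Without TBT replicate 4 the counts were 16 and 6 (median 0.56). Against DMSO, 18 genes were lower and 1 higher in ROSI (median -0.83), and 7 were lower and 0 higher in TBT (median -0.30). Without TBT replicate 4 the TBT counts against DMSO were 8 and 2, and without DMSO replicate 3 they were 4 and 0. Top2a, the topoisomerase of dividing cells, was at 56.3, 57.5, 54.1 and 37.2 CPM in TBT and 16.05, 18.0, 18.4 and 22.1 in ROSI (1.46 ± 0.18); Mki67, the Ki-67 antigen, was at 64.0, 32.6, 53.7 and 24.6 and 12.5, 6.95, 15.01 and 19.7 (1.70 ± 0.30). Cdkn1a, the cell cycle inhibitor p21, was lower at 54.3, 48.6, 54.8 and 88.9 CPM in TBT against 197, 178, 211 and 138 in ROSI (-1.56 ± 0.21). Tyms and Mcm2, which serve DNA synthesis, were lower, at -0.68 and -0.63, so the list did not move as a block, and the Mcm2 call ended after GC correction (adjusted p = 0.11). Top2a had a log2 fold change of 1.59, Mki67 of 1.90, Cdkn1a of -1.78, Tyms of -0.72 and Mcm2 of -0.63 without TBT replicate 4, and the same calls were made. Replication-dependent histone genes, picked by symbol after the values were seen, had 1 of 10 tested lower in TBT than in ROSI and 0 higher (median -0.66). Without TBT replicate 4, 5 of 11 histone genes were lower and 0 higher (median -0.72).

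Genes of the response to metals and oxidants moved in both directions. Of 28, 6 were lower and 2 higher (median -0.18; 10 and 4, median -0.31, without TBT replicate 4). Mt2, a metallothionein, was at 163, 166, 178 and 239 CPM in TBT and 468, 518, 376 and 287 in ROSI (-1.14 ± 0.19). Slc7a11, the cystine carrier, was lower, at -2.28 ± 0.31, as was Sod1, superoxide dismutase, at -0.83 ± 0.18. Of 16 genes induced by glucocorticoids, which were in the medium of all groups, 2 were higher and 4 lower (median 0.043; 4 and 4, median -0.077, without TBT replicate 4). Mt2 had a log2 fold change of -1.28, Slc7a11 of -2.15 and Sod1 of -1.08 without TBT replicate 4, and the same calls were made.

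The 10 largest decreases under the same rule were Elovl3, Rdh16, Lama4 and Acsl1, described above, and 6 genes of no list. Tmem45b, a membrane protein gene, had 4 counts in all TBT libraries and 302 in all ROSI libraries (-5.84 ± 0.49). Chchd10, a mitochondrial intermembrane protein gene, was at 2.68, 1.93, 4.06 and 6.09 CPM in TBT and 78.7, 72.4, 34.3 and 33.1 in ROSI (-3.90 ± 0.71), and Cdsn, corneodesmosin, was lower, at -3.69 ± 0.50. Sptlc3, a subunit of the enzyme that starts sphingolipid synthesis, was at 9.29, 7.14, 6.84 and 7.39 CPM in TBT and 89.0, 100.01, 96.0 and 99.7 in ROSI (-3.64 ± 0.35), and Acer2, a ceramidase, was lower, at -2.99 ± 0.42. Slc7a3, a carrier of cationic amino acids, was lower, at -2.88 ± 0.39. Tmem45b had a log2 fold change of -5.50, Chchd10 of -4.23, Cdsn of -3.51, Sptlc3 of -3.61, Acer2 of -3.02 and Slc7a3 of -2.81 without TBT replicate 4, and the same calls were made.

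The genes whose call depended most on TBT replicate 4 were those of ribosomal RNA and several low-count genes. Rn45s was at 4274, 5277, 7055 and 69128 CPM in TBT and 93631, 57155, 27832 and 13173 in ROSI, with a log2 fold change of -1.16 (adjusted p = 0.26) and -3.11 without replicate 4 (adjusted p = 5.4e-05). Mir6236, at -1.33 with and -5.13 without replicate 4, had 22.0, 19.1, 40.003 and 1419.5 CPM in TBT. Vps72, Ap1s1 and Rabac1 went from -1.30, -0.81 and -1.25 to -2.70, -2.48 and -2.29. On the side of higher genes Gm10865, Fblim1, Baiap3, 4933428G20Rik and Gm16596 went from 0.91, 0.95, 0.84, 0.82 and 1.04 to 1.09, 1.097, 1.11, 1.12 and 1.31. None of these 10 passed with all libraries and each passed without replicate 4.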

How the data were processed

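The authors deposited 2 tables with 1 column per library: raw read counts for 23955 gene symbols, and log2 values after regularized-log transformation. The submitters' processing notes name mm9 as the build and the tools FastQC, SAMtools and DESeq2. Which aligner, counter and annotation were used was not given in the sources used here. Columns were matched to groups by library title.

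Main tests used the counts in edgeR 4.0.16 (R 4.3.3). The steps were filterByExpr over the 3 groups, TMM scaling of library sizes (4027150 to 7474650 counts), and 1 quasi-likelihood model of all 12 libraries with the contrast TBT minus ROSI. P-values were Benjamini-Hochberg adjusted over all genes at a threshold of 0.05. The SE follows from the fold change and the F statistic. A fit without TBT replicate 4 repeated every step. In simulated counts of 12323 genes, 60 genes were changed 1.5-fold, 74 genes 2-fold and 66 genes 4-fold. Of these, 20%, 67.6% and 93.9% were recovered, and 8 of 132 calls were false. The simulation had no GC trend and no library that lay apart. A far larger share of genes was called in the data (23.9%), so these rates need not hold there. Libraries of a group were not copies (lowest chi-square per degree of freedom 4.66).

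The comparison and the 30 gene lists were chosen with earlier results of these data known, and lists share members. Named genes are the 10 largest increases and decreases called with and without TBT replicate 4 (no overlap, mean of at least 5 CPM), up to 3 called members per list and direction, 24 fixed genes and the 10 most dependent on TBT replicate 4; genes that are not reported here are part of all counts. Transcript GC content came from GENCODE M21 (99.1% of tested genes). DESeq2 1.42.0, limma 3.58.1 on the deposited log2 values, other scalings and filters, and a replicate block were alternatives.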

Additional observations from a re-analysis of the deposited data

Results flagged for a closer look

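Among the named genes and the library measures, 300 groups of 4 libraries were looked at for a library that lay far from the other 3, relative to the range of the group. In 29 of them 1 library did, and 13 of the 29 were TBT replicate 4. Chance alone gives about 1 in 20 groups, but the named genes include 10 that were chosen because their call depended on TBT replicate 4, and 5 of these, with the share of Rn45s, make up 6 of its 13. These counts therefore say nothing about how often that library stands apart among all genes.

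TBT replicate 4 was far above the other TBT libraries for Hadha at 109 CPM (others 60.8 to 66.7), Atp5b at 2444 CPM (others 1923 to 1987) and Lcn2 at 202 CPM (others 114 to 127). It was also high for Cdkn1a at 88.9 CPM (others 48.6 to 54.8), Mir6236 at 1419.5 CPM (others 19.1 to 40.003) and Rn45s at 69128 CPM (others 4274 to 7055). Further high values in it were Vps72 at 19.6 CPM (others 2.14 to 2.70), Ap1s1 at 23.9 CPM (others 1.35 to 4.06) and Rabac1 at 18.9 CPM (others 1.93 to 4.47). The same library was far below the others for Tpm2 at 284 CPM (others 443 to 468), Spp1 at 118 CPM (others 207 to 224) and Top2a at 37.2 CPM (others 54.1 to 57.5). Rn45s took 6.85% of its counts (others 0.399% to 0.670%).

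ROSI replicate 1 lay apart for I830012O16Rik at 1.003 CPM (others 1.90 to 2.07), Fads1 at 219 CPM (others 246 to 247) and Retn at 17.6 CPM (others 14.4 to 14.9). ROSI replicate 2 lay apart for Elovl3 at 47.6 CPM (others 32.6 to 35.1), Agpat9 at 84.2 CPM (others 60.2 to 60.6) and Atf3 at 25.6 CPM (others 14.4 to 15.5). The same held for Col6a3 at 203 CPM (others 407 to 444) and Mcam at 13.6 CPM (others 14.4 to 14.6). TBT replicate 1 lay apart for Acer2 at 6.79 CPM (others 10.003 to 10.2), Adipoq at 3.57 CPM (others 1.74 to 1.96) and Cfd at 1.79 CPM (others 3.85 to 3.91). TBT replicate 2 lay apart for Cdsn at 7.33 CPM (others 1.07 to 1.74), Klf4 at 8.30 CPM (others 10.9 to 11.3) and Slc7a11 at 38.0 CPM (others 14.8 to 16.04). TBT replicate 3 lay apart for Acsl1 at 122.8 CPM (others 114 to 115) and Kdr at 6.20 CPM (others 3.04 to 3.48). The cause of these values was not tested.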

How the results depend on the processing

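None of the 127 called genes named by the rule changed direction in any of these settings. The balance of higher and lower genes did turn: it was 1368 higher and 1513 lower with upper-quartile factors, 1428 and 1527 with limma on the deposited log2 values, 1534 and 1548 without a filter, 1328 and 1354 without DMSO replicate 3, 1221 and 1265 without ROSI replicate 3, and 1333 and 1375 without ROSI replicate 4. The medians of the cholesterol synthesis and glucocorticoid lists, near 0, also turned, as did the uncalled Pdia3. At an adjusted p under 0.01, 1355 genes passed (766 higher and 589 lower, 273 of these by at least 2-fold), and 3043 without TBT replicate 4 (1569 and 1474). With limma on the deposited log2 values the genes at least 2-fold higher and lower were 152 and 92, and 195 and 157 without TBT replicate 4, since these values are shrunken; the median of the interferon list was 1.32 there. Among genes with a mean of at least 5 CPM, 451 were at least 2-fold higher without TBT replicate 4. Leaving out each library in turn gave 1732 to 4826 genes (949 to 2520 higher, 783 to 2306 lower, 408 to 692 and 304 to 836 by at least 2-fold), and, from the set without TBT replicate 4, 3594 to 4928 (1853 to 2536 higher, 1741 to 2450 lower, 582 to 767 and 722 to 943 by at least 2-fold). The other settings (DESeq2, its size factors, upper-quartile factors, no filter, a fit of the 8 libraries, Rn45s left out and GC correction) gave 2328 to 3158 genes. Of 127 called genes named by the rule, 113 kept their call in every setting. Fits with fewer samples have less power by construction; the cause of the other shifts was not tested.

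Replicate numbers did not pair the libraries: same-numbered TBT and ROSI libraries correlated in their deviations at -0.26, 0.032, 0.12 and -0.39, and 0 of 4 correlated best with its own number. With the replicate number as a block, 2154 genes passed, 2146 of them shared, and 4967 without TBT replicate 4.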

Other observations

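Some gene families outside the lists also differed between the ligands. They were picked by symbol after the values had been seen, so their counts are a description. Of 18 tested aminoacyl-tRNA synthetases, which charge transfer RNAs with amino acids, 10 were lower in TBT and 0 higher (median log2 fold change -0.54; 12 lower and a median of -0.57 without TBT replicate 4). Sars, for serine, was at 54.0, 63.1, 56.9 and 104 CPM in TBT and 183, 244, 155 and 154 in ROSI (-1.41 ± 0.20, edgeR adjusted p = 0.00012), and DMSO was at 108 ± 16.2 (SD, n = 4). Aars, for alanine, and Wars, for tryptophan, were lower at -1.21 ± 0.20 and -1.47 ± 0.31. Cytosolic ribosomal protein genes followed in part, with 24 of 81 lower and 1 higher (median -0.30; 36 and 2, median -0.42, without TBT replicate 4). Their processed copies in the genome make single values uncertain. Sars had a log2 fold change of -1.66, Aars of -1.39 and Wars of -1.84 without TBT replicate 4, and the same calls were made.

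Hox genes, which record the position of a cell along the body, had 8 of 22 tested members higher in TBT and 0 lower (median 0.61; 10 and 1 without TBT replicate 4). Hoxa5 was at 27.9, 23.2, 19.5 and 15.4 CPM in TBT and 13.5, 6.79, 9.70 and 11.03 in ROSI (1.09 ± 0.22), with no overlap. Hoxa9 and Hoxc9 were higher at 0.71 ± 0.15 and 0.84 ± 0.18. Among integrins, 8 of 21 were higher and 2 lower (9 and 2 without TBT replicate 4). Itga8 was at 69.7, 65.2, 58.2 and 34.8 CPM in TBT and 10.5, 9.16, 18.2 and 10.6 in ROSI (2.21 ± 0.24), whereas Itga6, a laminin receptor, was at 6.08, 11.001, 4.71 and 10.7 in TBT and 29.6, 40.6, 35.4 and 28.9 in ROSI (-2.06 ± 0.22). Histocompatibility genes, taken as all symbols that start with H2- and so not only class I, had 8 of 20 higher and 0 lower (median 0.29). Without TBT replicate 4 the counts were 8 and 2 and the median turned to -0.077. H2-K1 was at 0.86 ± 0.14, and close copies make the single values of such genes uncertain. Hoxa5 had a log2 fold change of 1.23, Hoxa9 of 0.74, Hoxc9 of 0.996, Itga8 of 2.39, Itga6 of -2.20 and H2-K1 of 0.97 without TBT replicate 4, and the same calls were made.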
